A study of Mus musculus with 4 samples.

Results

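The genes described here are the subunits of the transcription factor NF-kB and a set of its inhibitors and regulators, Nfkb1, Nfkb2, Rel, Rela, Relb, Nfkbia, Nfkbie, Bcl3, Tnfaip3 and Tnip3. They were chosen by name, with earlier results of these data known, so their counts beside all genes are not those of a blind choice. All 10 were among the 13978 genes of the deposited single-cell count matrix. The study asked how a B-cell acute lymphoblastic leukemia (B-ALL) in the same marrow affects blood stem and progenitor cells of the host. Wild-type CD45.1 mice of the B-ALL environment group had received 150000 primary tumor cells from a lymph node of 1 leukemic CD45.2 mouse heterozygous for Ebf1 and Pax5 (Ebf1+/-Pax5+/-, line LN768), by tail vein. Wild-type CD45.1 mice of the PBS control group had received PBS. After 3 weeks, host bone marrow cells that were KIT+, lineage-negative, CD45.1+ and CD45.2- were sorted in both groups and measured by droplet sequencing of transcript 3′ ends.

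The labels list 2 samples per group, but no cell carries a sample number, so each group was 1 sample here. No difference could be tested against the spread between mice. Every interval covers counting error only, at 95%, and a difference of over 1.5-fold is a description of size. The leukemia came from 1 donor mouse, and sex and age are not given in the sources used here.

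The matrix held 5882 B-ALL environment cells with 76059014 unique molecular identifiers (UMIs, 1 per captured transcript) and a median of 10458 per cell. It also held 5882 cells of the PBS control with 68391214 UMIs and a median of 10189. In the tumor-bearing group 190 cells (3.23%) lay below the shallowest control cell in UMIs. Of the sort markers, Kit had a UMI in 79.1% of B-ALL environment cells and 92.9% of control cells, and Ptprc, which encodes CD45, in 77.8% and 74.0%. The 2 groups shared 18 cell barcodes. Mitochondrially encoded genes made up 5.14% of UMIs in the B-ALL environment and 3.56% in the PBS control. Of 9 B-cell markers, 3 were in the matrix (Cd79b, Vpreb1 and Igll1), with a summed level of 50.9 CPM (UMIs per 1000000) in the B-ALL environment and 43.1 CPM in the PBS control. Of 9 macrophage markers, 7 were in the matrix, with a summed level of 9.74 CPM in the B-ALL environment and 5.95 CPM in the PBS control.

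NF-kB is a family of dimers that carry signals from tumor necrosis factor (TNF), interleukin-1 and Toll-like receptors, and from lymphotoxin and CD40, to genes of inflammation and survival. In resting cells inhibitors of the IkB family, among them the products of Nfkbia and Nfkbie, hold most dimers in the cytoplasm. Signals lead to degradation of these inhibitors, and the dimers then activate genes that include several of their own inhibitors and subunits, so that the RNA of Nfkbia, Nfkb2, Relb, Bcl3 and Tnfaip3 is widely read as a record of recent activity. In the canonical branch, dimers of p50 (from Nfkb1) with RelA or c-Rel act. In the non-canonical branch, p52 (from Nfkb2) acts with RelB. In bone marrow the pathway is known for roles in stem cell maintenance and in the output of myeloid cells under inflammation.

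The DNA that NF-kB dimers bind, the kB site, is known in the promoters of several of these genes, and the promoter windows of 4 members over 1.5-fold higher and of 2 below that limit, Rel and Rela, are shown. RefSeq windows of 250 bases upstream of the start, on GRCm38.p6, were found for 8 of the 10 members, in 11 windows. Nfkb1 and Relb had no window in the table. On either strand, 2 motifs were searched, the kB consensus of 10 bases and the shorter GGNNNTTCC, which overlap each other. The kB consensus was in 8 of the 11 windows, against 7.25% of 32851 windows in the table, and GGNNNTTCC was in 10 of the 11, against 15.7%. Counted by gene, the kB consensus was in 6 of the 8 members and GGNNNTTCC in 7. Nfkb2 and Tnfaip3 had more than 1 window each, and no share per gene was taken over the table, so the counts by gene have no background. Capitals mark each run of bases that matched either motif. The windows, each read 5′ to 3′ along its gene, are Nfkbia (chr12:55492648-55492897, minus strand), Nfkb2 (chr19:46304487-46304736, plus strand), Tnip3 (chr6:65590148-65590397, plus strand), Bcl3 (chr7:19822756-19823005, minus strand), Rel (chr11:23770970-23771219, minus strand) and Rela (chr19:5637291-5637540, plus strand).
Nfkbia: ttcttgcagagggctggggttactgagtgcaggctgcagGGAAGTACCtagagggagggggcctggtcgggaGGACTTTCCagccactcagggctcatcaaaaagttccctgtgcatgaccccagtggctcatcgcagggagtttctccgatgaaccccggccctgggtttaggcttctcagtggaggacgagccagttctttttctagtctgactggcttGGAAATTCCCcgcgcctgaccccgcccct
Nfkb2: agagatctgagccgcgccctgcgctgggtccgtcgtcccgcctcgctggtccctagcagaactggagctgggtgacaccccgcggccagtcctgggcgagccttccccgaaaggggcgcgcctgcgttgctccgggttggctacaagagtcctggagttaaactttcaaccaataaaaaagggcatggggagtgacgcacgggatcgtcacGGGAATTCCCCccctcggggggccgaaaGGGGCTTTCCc
Tnip3: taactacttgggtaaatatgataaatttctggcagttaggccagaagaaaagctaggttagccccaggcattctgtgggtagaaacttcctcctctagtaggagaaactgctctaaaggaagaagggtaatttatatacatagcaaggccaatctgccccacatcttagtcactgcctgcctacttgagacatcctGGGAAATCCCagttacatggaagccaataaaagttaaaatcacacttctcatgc
Bcl3: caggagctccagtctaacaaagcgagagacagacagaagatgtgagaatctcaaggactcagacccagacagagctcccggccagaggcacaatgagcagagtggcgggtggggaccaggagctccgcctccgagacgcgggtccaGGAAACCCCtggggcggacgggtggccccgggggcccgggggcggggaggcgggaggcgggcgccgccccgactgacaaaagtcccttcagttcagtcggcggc
Rel: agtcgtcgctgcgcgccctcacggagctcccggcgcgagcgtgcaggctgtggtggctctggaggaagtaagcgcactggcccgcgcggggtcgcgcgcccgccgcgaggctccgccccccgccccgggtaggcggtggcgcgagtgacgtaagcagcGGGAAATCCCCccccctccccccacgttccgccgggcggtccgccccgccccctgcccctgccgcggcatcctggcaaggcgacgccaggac
Rela: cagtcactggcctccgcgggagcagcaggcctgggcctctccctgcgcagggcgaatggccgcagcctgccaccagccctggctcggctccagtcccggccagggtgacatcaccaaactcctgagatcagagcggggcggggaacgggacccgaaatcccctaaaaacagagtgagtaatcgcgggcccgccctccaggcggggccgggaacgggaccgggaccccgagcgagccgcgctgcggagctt
The Nfkbia window held 3 marked runs, GGAAGTACC, GGACTTTCC and GGAAATTCCC, which began 211, 178 and 29 bases upstream of the start. The Nfkb2 window shown, 1 of several for that gene, held 2 runs close to the start, at 39 and 11 bases. Tnip3 had 1 run, GGGAAATCCC, 54 bases upstream. Its window lies inside the annotated span of the gene (chr6:65525313-65634040), so the start used was not the 5′ end of that span. Bcl3 had a match to the shorter motif alone, 104 bases upstream. Of the 2 members below the limit, Rel had 1 run, GGGAAATCCCC, 92 bases upstream, and the Rela window had no match to these letters. A match is a description of the letters and was not measured as a bound site.

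Over all cells, 7 of the 10 genes were over 1.5-fold higher in the B-ALL environment and none was over 1.5-fold lower. Among all 13978 genes tested, 12.6% were that much higher and 8.08% that much lower. The median log2 fold (B-ALL environment over PBS control) of the 10 genes was 0.83, and that of all genes was 0.0018. All 5 inhibitors and regulators were among the 7, with 2 of the 5 subunits, Relb and Nfkb2.

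**Figure D1:**
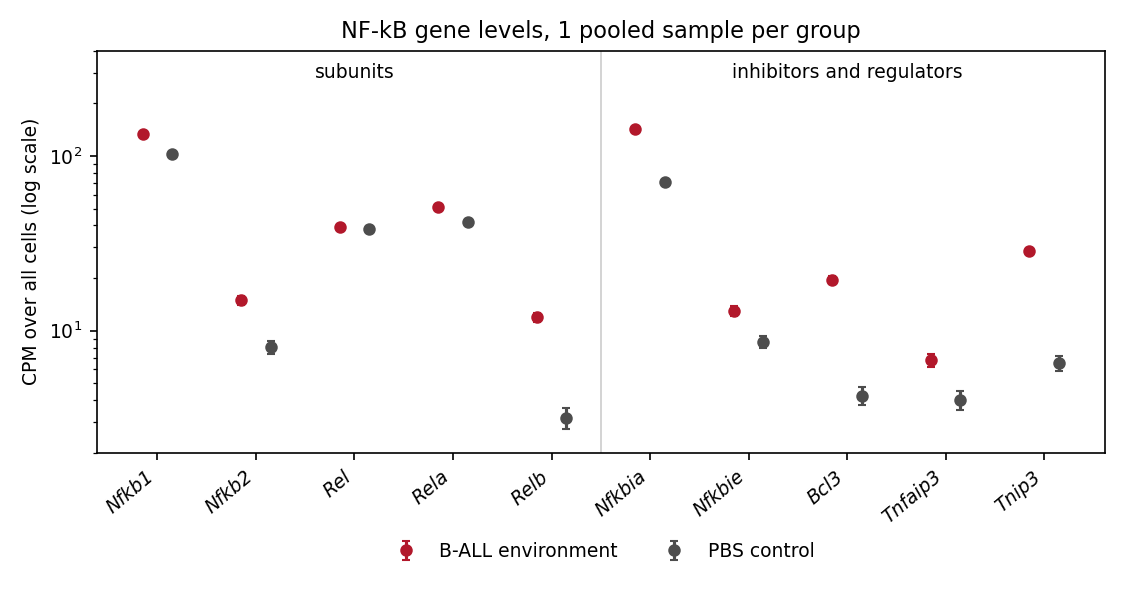
Level of each NF-kB gene over all cells, in CPM on a log axis, in the B-ALL environment and the PBS control, with error bars for the exact 95% Poisson interval. The widest gaps are at Bcl3 (4.58-fold), Tnip3 (4.42-fold) and Relb (3.77-fold), and the groups nearly coincide at Rel.

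Among the subunits, Relb, the partner of p52 in the non-canonical branch, had 916 UMIs (11.9 CPM) in the B-ALL environment and 213 UMIs (3.15 CPM) in the PBS control, a log2 fold of 1.92 (1.70 to 2.14). Nfkb2, which encodes p100, the precursor of p52, had 1151 UMIs (14.9 CPM) in the B-ALL environment and 544 UMIs (8.05 CPM) in the PBS control, a log2 fold of 0.89 (0.74 to 1.04). Both genes of the non-canonical dimer were past the limit of 1.5-fold. The canonical subunits differed less. Nfkb1, the precursor of p50, stood at 133 CPM in the B-ALL environment and 103 CPM in the PBS control (log2 fold 0.37, 0.33 to 0.42). Rela, which encodes the widely used activating subunit p65, stood at 51.0 CPM in the B-ALL environment and 42.1 CPM in the PBS control (log2 fold 0.28, 0.21 to 0.35). Rel, which encodes c-Rel, a subunit prominent in lymphoid cells, was near equal, at 39.4 CPM in the B-ALL environment and 38.0 CPM in the PBS control, and the interval of its log2 fold held 0 (0.05, -0.03 to 0.13).

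Among the inhibitors, Nfkbia, which encodes IkB-alpha, had 11044 UMIs (143 CPM) in the B-ALL environment and 4786 UMIs (70.8 CPM) in the PBS control, a log2 fold of 1.02 (0.97 to 1.07). Nfkbie, which encodes IkB-epsilon, had 12.9 CPM in the B-ALL environment and 8.60 CPM in the PBS control, and its log2 fold of 0.59 (0.44 to 0.74) sat just past the limit of 1.5-fold. Bcl3, an atypical nuclear IkB protein that binds dimers of p50 or p52, had 1494 UMIs (19.4 CPM) in the B-ALL environment and 286 UMIs (4.23 CPM) in the PBS control, a log2 fold of 2.20 (2.01 to 2.38). Bcl3 and Tnip3 had the highest folds of the 10. Tnip3, which encodes ABIN-3, a partner of the A20 protein, had 2204 UMIs (28.6 CPM) in the B-ALL environment and 438 UMIs (6.48 CPM) in the PBS control, a log2 fold of 2.14 (1.99 to 2.29). With each class cut to the same cell number in both groups, the log2 fold of Tnip3 was 1.39 (1.23 to 1.55), and that of Nfkbie was 0.43 (0.26 to 0.60), below the limit. Tnfaip3, which encodes A20, an enzyme that removes ubiquitin from signalling proteins of the pathway, had 521 UMIs (6.77 CPM) in the B-ALL environment and 269 UMIs (3.98 CPM) in the PBS control, a log2 fold of 0.76 (0.55 to 0.98). Bcl3 and Nfkb2 overlap genes on the opposite strand that are in the matrix, and the sources used here do not say how strand was handled, so reads of each pair cannot be told apart. The partners were low: Gm16174, which overlaps Bcl3, had 130 UMIs in the B-ALL environment and 79 in the PBS control, and Psd, which overlaps Nfkb2, had 88 and 62.

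The makeup of the sorted cells differed between the groups, so the genes were followed within progenitor classes. Cells were clustered on the authors' map, and clusters were named by marker genes, none of which is a member. The HSC-like class, named for hematopoietic stem cell markers such as Hlf and Mecom, held 1513 B-ALL environment cells and 537 control cells. The megakaryocyte-like class (platelet precursors) held 943 and 510 cells, the lymphoid-primed-like class 347 and 349, and the granulocyte-monocyte progenitor-like class 677 and 842. The monocyte progenitor-like class held 400 and 603 cells, and the neutrophil progenitor-like class 142 and 217. Erythroid-like cells (red cell precursors) numbered 161 in the B-ALL environment and 692 in the PBS control, early erythroid-megakaryocyte-like cells, marked by Gata2 and Mfsd2b, 481 and 943, and basophil and mast cell-like cells 159 and 232. Another 4 clusters stayed unnamed, and a T and NK cell-like cluster of 32 and 21 cells was not compared.

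The NF-kB genes differed most in 3 classes, erythroid-like, early erythroid-megakaryocyte-like and basophil and mast cell-like cells, and least in neutrophil progenitor-like and granulocyte-monocyte progenitor-like cells. In erythroid-like cells 9 of the 10 genes were over 1.5-fold higher in the B-ALL environment, with a median log2 fold of 2.16, where 10.6% of all genes tested in that class were that much higher. In early erythroid-megakaryocyte-like cells 9 of 10 were, with a median of 1.79, against 12.7% of all genes. In basophil and mast cell-like cells 7 of 10 were, with a median of 1.55, against 9% of all genes. Rela was the gene below the limit in all 3, with log2 folds of 0.20, 0.41 and 0.28. For each of the 10 genes the highest of the 9 class folds lay in 1 of these 3 classes. For Rela that fold, 0.41 in early erythroid-megakaryocyte-like cells (0.18 to 0.64), could not be told from 0.41 in monocyte progenitor-like cells (0.19 to 0.62). The counts and medians of these 3 classes include genes that passed the low-count filter through the B-ALL environment alone. These were Bcl3 and Tnip3 in all 3 classes, and Relb in basophil and mast cell-like cells. Such a gene can enter only as higher, so the counts are descriptions and give no support of their own. No difference between classes was tested.

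In the other 6 classes the counts were smaller. Over 1.5-fold higher were 5 of 10 genes in HSC-like cells (14.1% of all genes), 5 of 10 in megakaryocyte-like cells (10.2%), 4 of 10 in lymphoid-primed-like cells (9.24%), 4 of 10 in monocyte progenitor-like cells (5.45%) and 3 of 10 in granulocyte-monocyte progenitor-like cells (6.18%). In neutrophil progenitor-like cells Relb, Tnfaip3 and Tnip3 had too few UMIs for the low-count filter, and 1 of the remaining 7 was over 1.5-fold higher (6.02% of all genes). That gene was Bcl3. The median log2 folds were 0.55 in HSC-like, 0.62 in megakaryocyte-like, 0.53 in lymphoid-primed-like, 0.31 in monocyte progenitor-like, 0.09 in granulocyte-monocyte progenitor-like and -0.12 in neutrophil progenitor-like cells. In none of the 9 named classes was a gene of the set over 1.5-fold lower, a size that 9.38% of all genes reached in erythroid-like, 11.1% in early erythroid-megakaryocyte-like, 7.56% in basophil and mast cell-like, 7.74% in HSC-like, 10.9% in megakaryocyte-like, 6.05% in lymphoid-primed-like, 7.64% in monocyte progenitor-like, 6.62% in granulocyte-monocyte progenitor-like and 9.81% in neutrophil progenitor-like cells. In the 4 unnamed clusters the genes over 1.5-fold higher were 3 of 10 in cluster 1 (6.87% of all genes), 5 of 10 in cluster 2 (9.84%), 6 of 8 in cluster 10 (23.3%) and 5 of 10 in cluster 11 (11.9%). The genes over 1.5-fold lower there were Tnfaip3 in cluster 1 (6.85% of all genes) and Nfkbie in cluster 10 (23.7%), both with intervals of the log2 fold that held 0, and none in clusters 2 (6.19%) and 11 (7.37%). In cluster 10 the granulocyte-monocyte progenitor markers summed to 5204 CPM in the B-ALL environment and 18057 CPM in the PBS control, and the 7 macrophage markers in the matrix to 143 and 12.1 CPM. All 4 macrophage markers tested there were over 1.5-fold higher, and their part in the NF-kB count was not tested.

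**Figure D2:**
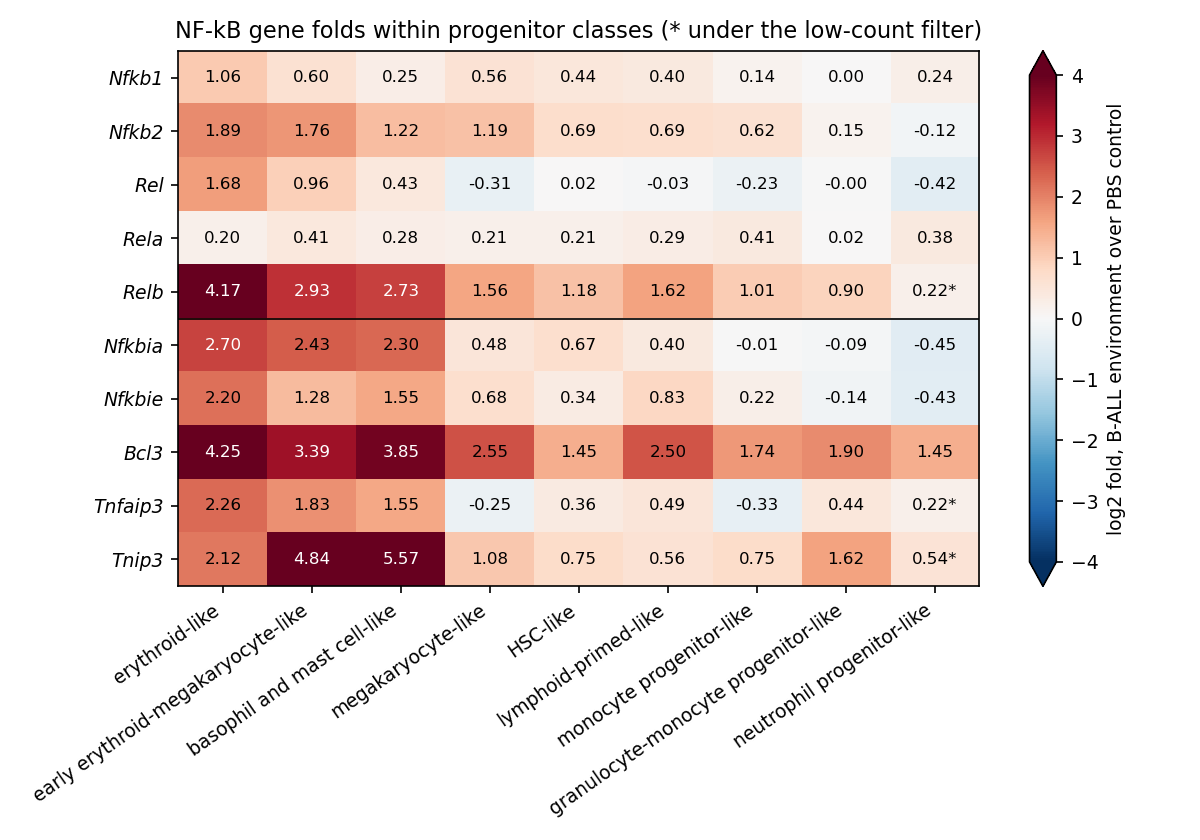
Log2 fold (B-ALL environment over PBS control) of each NF-kB gene in each of 9 progenitor classes, in color with the value printed, and a star on values under the low-count filter. The erythroid-like, early erythroid-megakaryocyte-like and basophil and mast cell-like columns hold the highest values, and Bcl3 is the row that stays at 1.45 or above in every class.

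Nfkbia carried the largest numbers of UMIs in this pattern. In basophil and mast cell-like cells it stood at 718 CPM in the B-ALL environment (1148 UMIs) and 145.6 CPM in the PBS control (272 UMIs), a 4.93-fold difference (4.32 to 5.65). In early erythroid-megakaryocyte-like cells it stood at 384 CPM in the B-ALL environment (1778 UMIs) and 71.4 CPM in the PBS control (474 UMIs), a 5.38-fold difference (4.86 to 5.96). In erythroid-like cells it stood at 257 CPM in the B-ALL environment (820 UMIs) and 39.5 CPM in the PBS control (449 UMIs), a 6.50-fold difference (5.78 to 7.31). Among the other 6 named classes the fold of Nfkbia passed 1.5 in HSC-like cells alone, at 1.59 (1.43 to 1.76). In the unnamed clusters it was 2.28 in cluster 10 (1.54 to 3.46), 1.84 in cluster 11 (1.55 to 2.19), 1.70 in cluster 2 (1.38 to 2.09) and 1.13 in cluster 1, with an interval that held 1. In the named classes its log2 fold was 0.48 in megakaryocyte-like and 0.40 in lymphoid-primed-like cells, and the intervals held 0 in monocyte progenitor-like (-0.01) and granulocyte-monocyte progenitor-like cells (-0.09). In neutrophil progenitor-like cells it was lower, at 46.9 CPM in the B-ALL environment and 64.2 CPM in the PBS control (log2 fold -0.45, -0.77 to -0.14).

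Tnip3 had the widest range of class folds. In basophil and mast cell-like cells it had 163 UMIs (102 CPM) in the B-ALL environment and 4 UMIs (2.14 CPM) in the PBS control, a 47.6-fold difference with a counting interval of 18.2 to 177. In early erythroid-megakaryocyte-like cells it had 200 UMIs (43.2 CPM) in the B-ALL environment and 10 UMIs (1.51 CPM) in the PBS control, a 28.7-fold difference (15.3 to 60.7). The control values of both classes were close to those of classes in which Tnip3 was scarcely detected in either group. HSC-like cells, in contrast, held Tnip3 in both groups, at 56.1 CPM in the B-ALL environment and 33.4 CPM in the PBS control (log2 fold 0.75, 0.49 to 1.02). Megakaryocyte-like cells did as well, at 50.3 CPM in the B-ALL environment and 23.8 CPM in the PBS control (log2 fold 1.08, 0.78 to 1.39).

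Bcl3 was over 1.5-fold higher in all 9 named classes. In lymphoid-primed-like cells it stood at 34.8 CPM in the B-ALL environment (124 UMIs) and 6.14 CPM in the PBS control (20 UMIs), a log2 fold of 2.50 (1.81 to 3.26). In granulocyte-monocyte progenitor-like cells, where Nfkb1, Rel, Rela and Nfkbia had log2 folds between -0.09 and 0.02, Bcl3 stood at 18.5 CPM in the B-ALL environment and 4.97 CPM in the PBS control (log2 fold 1.90, 1.48 to 2.33). In neutrophil progenitor-like cells it stood at 13.4 CPM in the B-ALL environment and 4.90 CPM in the PBS control (log2 fold 1.45, 0.60 to 2.36). Where the control level was lowest, counts were few: erythroid-like cells had 16 UMIs in the B-ALL environment and 3 in the PBS control, a ratio of 19.0 (5.43 to 102), and basophil and mast cell-like cells had 37 and 3, a ratio of 14.4 (4.56 to 73.1).

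Relb and Nfkb2, the non-canonical pair, had their highest folds in erythroid-like and early erythroid-megakaryocyte-like cells, with intervals that overlapped those of basophil and mast cell-like cells. Relb in erythroid-like cells had 96 UMIs (30.04 CPM) in the B-ALL environment and 19 UMIs (1.67 CPM) in the PBS control, a log2 fold of 4.17 (3.45 to 4.96). In early erythroid-megakaryocyte-like cells Relb had 138 UMIs (29.8 CPM) in the B-ALL environment and 26 UMIs (3.92 CPM) in the PBS control, a 7.61-fold difference (4.98 to 12.1). In neutrophil progenitor-like cells it had 2 UMIs in each group, so no fold is given. Nfkb2 differed 3.69-fold in erythroid-like cells (2.67 to 5.11), 3.39-fold in early erythroid-megakaryocyte-like cells (2.54 to 4.57) and 2.34-fold in basophil and mast cell-like cells (1.27 to 4.46).

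Tnfaip3 and Nfkbie were past 1.5-fold in all 3 classes. Tnfaip3 had 93 UMIs (58.2 CPM) in basophil and mast cell-like cells of the B-ALL environment and 37 UMIs (19.8 CPM) in those of the PBS control, a 2.94-fold difference (1.99 to 4.42). Its fold was 3.54 in early erythroid-megakaryocyte-like cells (2.57 to 4.94) and 4.78 in erythroid-like cells (2.96 to 7.81). In each of the other 6 classes the interval of its fold held 1. Nfkbie differed 4.60-fold in erythroid-like cells (3.00 to 7.09), 2.92-fold in basophil and mast cell-like cells (1.71 to 5.18) and 2.43-fold in early erythroid-megakaryocyte-like cells (1.69 to 3.53).

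Nfkb1 and Rel, which differed little over all cells, were higher in the erythroid branch. Nfkb1 stood at 145 CPM in erythroid-like cells of the B-ALL environment and 69.3 CPM in those of the PBS control, a 2.09-fold difference (1.86 to 2.34). Rel was scarce in erythroid-like cells, with 28 UMIs (8.76 CPM) in the B-ALL environment and 31 UMIs (2.73 CPM) in the PBS control, a 3.21-fold difference (1.86 to 5.54). It was lower in 2 classes in which it is better represented. In monocyte progenitor-like cells Rel stood at 54.4 CPM in the B-ALL environment and 63.8 CPM in the PBS control (log2 fold -0.23, -0.41 to -0.05), and in neutrophil progenitor-like cells at 29.5 and 39.5 CPM (log2 fold -0.42, -0.82 to -0.02).

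HSC-like cells are the class named for stem cells, which the study's question covers together with progenitor cells. In them Bcl3 stood at 28.0 CPM in the B-ALL environment (362 UMIs) and 10.3 CPM in the PBS control (44 UMIs), a 2.73-fold difference (1.99 to 3.82). Relb stood at 17.96 CPM in the B-ALL environment (232 UMIs) and 7.94 CPM in the PBS control (34 UMIs), a 2.26-fold difference (1.57 to 3.35). Nfkb2, Nfkbia and Tnip3 followed with folds of 1.61, 1.59 and 1.68, while Rel was at 1.02 (0.867 to 1.19) and the interval of Rela held 1 (1.16, 0.995 to 1.35). This class joins 3 clusters that the groups filled unequally: cluster 3 held 573 B-ALL environment cells and 122 control cells, cluster 4 held 451 and 185, and cluster 17 held 489 and 230. Taken alone, cluster 3 had 3 genes over 1.5-fold higher (14.8% of all genes), cluster 4 had 4 (12.1%) and cluster 17 had 6 (11.8%). Bcl3 was over 1.5-fold higher in all 3 (log2 folds of 1.91, 1.52 and 1.16), whereas the log2 fold of Relb was 0.31 in cluster 3 (-0.66 to 1.43) and 1.96 in cluster 17 (1.03 to 3.02). Other markers differed within HSC-like cells: the 10 HSC markers summed to 1183 CPM in the B-ALL environment and 924 CPM in the PBS control, and 8 of them were over 1.5-fold higher. The granulocyte-monocyte progenitor markers summed to 1019 and 2354 CPM, the multipotent progenitor markers to 2294 and 3907 CPM, and the basophil and mast cell markers to 12.5 and 156 CPM. Their part in the NF-kB values of this class was not tested.

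Other marker genes moved within these classes too, and their part in the NF-kB result was not tested. Early erythroid-megakaryocyte-like cells had a summed level of 11 erythroid markers of 1536 CPM in the B-ALL environment and 3866 CPM in the PBS control, and of the megakaryocyte markers of 418 CPM and 167 CPM. Their own 6 markers summed to 1519 CPM in the B-ALL environment and 1505 CPM in the PBS control. Of these, 2 were over 1.5-fold lower and none higher (11.1% and 12.7% of all genes). The 2 clusters of this class held 306 and 175 cells in the B-ALL environment (clusters 5 and 15) and 402 and 541 cells in the PBS control, and alone had 8 and 9 of the 10 genes over 1.5-fold higher, against 12% and 11.5% of all genes. Basophil and mast cell-like cells, a single cluster, had own markers that summed to 2915 CPM in the B-ALL environment and 2894 CPM in the PBS control. Of the 7 tested, 2 were over 1.5-fold higher and 1 lower (9% and 7.56% of all genes). Erythroid-like cells had erythroid markers of 6229 CPM in the B-ALL environment and 9388 CPM in the PBS control. The median depth of early erythroid-megakaryocyte-like cells was 8466 UMIs in the B-ALL environment and 5971 UMIs in the PBS control, that of basophil and mast cell-like cells 8473 and 6931 UMIs, and that of erythroid-like cells 16153 and 15138.5 UMIs. Megakaryocyte-like cells had 9 megakaryocyte markers of 1996 CPM in the B-ALL environment and 4512 CPM in the PBS control, granulocyte-monocyte progenitor markers of 285 and 808 CPM, and a median depth of 12683 and 7765.5 UMIs.

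The share of cells with at least 1 UMI was compared after each cell was thinned to 3000 UMIs, which left 5703 B-ALL environment cells and all 5882 control cells. For 8 of the 10 genes the exact binomial intervals of the 2 groups did not overlap, and the share was higher in the B-ALL environment. In a second thinning that drew over all 13978 genes, 8 members were again higher with intervals apart, as were 18.9% of all genes, while no member and 15.8% of all genes were lower. Nfkbia was found in 31.0% of B-ALL environment cells (29.8 to 32.2) and 20.2% of control cells (19.2 to 21.2), or 63.1% and 49.3% without thinning. Tnip3 was found in 9.47% of B-ALL environment cells and 2.50% of control cells, or 21.4% and 5.61% without thinning. Bcl3 was found in 6.08% and 1.24%, or 19.8% and 4.45% without thinning, and Relb in 4.14% and 0.901%, or 11.8% and 3.21% without thinning. For Rel, at 11.5% and 10.3%, and Tnfaip3, at 2.09% and 1.56%, the intervals overlapped.

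Within classes Nfkbia was found in 66.4% of basophil and mast cell-like cells of the B-ALL environment and 32.8% of those of the PBS control, in 50.3% and 19.4% of early erythroid-megakaryocyte-like cells, and in 48.4% and 12.3% of erythroid-like cells. In neutrophil progenitor-like cells it was found in 9.93% of B-ALL environment cells and 14.7% of control cells, with overlapping intervals. Tnip3 was found in 20.1% of basophil and mast cell-like cells of the B-ALL environment and 0.862% of those of the PBS control. As a guide to background from free RNA, Tnip3 had a thinned UMI in 0.709% of neutrophil progenitor-like cells of the B-ALL environment and 0.461% of those of the PBS control, whose median depths before thinning were 19886 and 15523 UMIs. The control share in basophil and mast cell-like cells is therefore not separable from such background. Relb was found in 11.3% of erythroid-like cells of the B-ALL environment and 0.578% of those of the PBS control, or 37.9% and 2.601% without thinning. In neutrophil progenitor-like cells Relb was found, without thinning, in 1.41% of 142 B-ALL environment cells and 0.922% of 217 control cells, with 2 UMIs in each group. Background from free RNA was not measured, so its part in the control share of erythroid-like cells is not known.

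**Figure D3:**
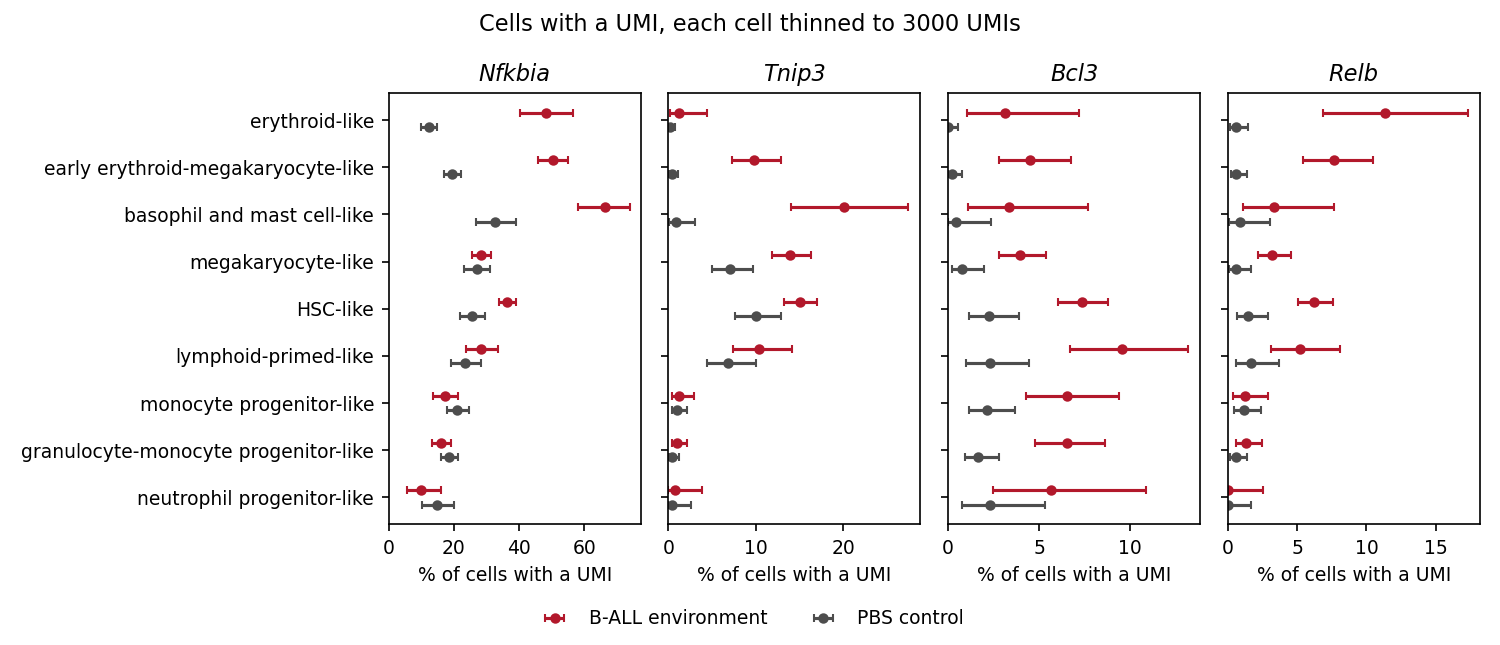
Percentage of cells with at least 1 UMI of Nfkbia, Bcl3, Tnip3 and Relb in each progenitor class, after thinning to 3000 UMIs per cell, with exact 95% binomial intervals. The widest gap for Nfkbia is in erythroid-like cells (48.4% in the B-ALL environment, 12.3% in the PBS control), and for Nfkbia the intervals of the groups overlap in the monocyte, granulocyte-monocyte and neutrophil progenitor-like classes.

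Over all cells, which mix classes of different level, Nfkbia was more unevenly spread in the B-ALL environment. The 5% of cells with the most Nfkbia UMIs held 34.4% of them in the B-ALL environment and 25.4% in the PBS control, and the highest cell had 40 UMIs in the B-ALL environment and 15 in the PBS control. Within HSC-like cells the top 5% held similar shares, 26.1% in the B-ALL environment and 26.9% in the PBS control. Nfkb1, which had a similar number of UMIs in the B-ALL environment, was spread alike in both groups, with 19.4% and 19.9% of its UMIs in the top 5% of cells.

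Across classes, the order of levels differed between the groups. On a scale normalised over all 18 class-by-group sums, Nfkbia in the B-ALL environment was highest in basophil and mast cell-like cells (667 CPM), then in early erythroid-megakaryocyte-like (349 CPM), erythroid-like (267 CPM) and HSC-like cells (147 CPM), each apart from the next by its counting interval. Megakaryocyte-like (134 CPM) and lymphoid-primed-like cells (112 CPM) followed, and monocyte progenitor-like (75.7 CPM), granulocyte-monocyte progenitor-like (64.7 CPM) and neutrophil progenitor-like cells (55.4 CPM) were lowest, with overlapping intervals between neighbours. In the PBS control basophil and mast cell-like cells were also highest (137 CPM), but megakaryocyte-like cells came next (94.8 CPM), with an interval that overlapped that of HSC-like cells (91.6 CPM). Early erythroid-megakaryocyte-like (65.6 CPM) and erythroid-like cells (41.7 CPM) were the lowest. The interval of the former overlapped that of granulocyte-monocyte progenitor-like cells (69.1 CPM), and erythroid-like cells stood apart. Relb was highest in erythroid-like (31.3 CPM) and early erythroid-megakaryocyte-like cells (27.1 CPM) of the B-ALL environment and in HSC-like cells (7.11 CPM) of the PBS control, where most neighbours overlapped. Rel was highest in lymphoid-primed-like cells in both groups (75.8 CPM in the B-ALL environment, 78.2 CPM in the PBS control) and lowest in erythroid-like cells in both (9.13 and 2.88 CPM). The interval of lymphoid-primed-like cells overlapped that of monocyte progenitor-like cells in the PBS control (69.5 CPM), and the interval of erythroid-like cells overlapped that of megakaryocyte-like cells in the B-ALL environment (14.5 CPM). Rela lay between 40.7 and 58.0 CPM in the B-ALL environment and between 31.2 and 47.9 CPM in the PBS control.

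The genes whose levels over the same 18 sums were most like Nfkbia, among 8775 genes that averaged 10 CPM or more, were Zc3h12a (Pearson r = 0.93), Gab2 (0.83) and Nfkb2 (0.82). Zc3h12a encodes Regnase-1, an RNase that cleaves inflammatory transcripts. For Nfkb2 they were Nfkbia (0.82), Rttn (0.82) and Nfkb1 (0.82), and for Bcl3 they were Sbno2 (0.93), Marf1 (0.93) and Hsf2 (0.90). The sums of a group share a library and its depth, so these are descriptions. Zc3h12a stood at 64.4 CPM in basophil and mast cell-like cells of the B-ALL environment and 11.8 CPM in those of the PBS control, with a log2 fold of 1.64 in early erythroid-megakaryocyte-like cells (1.26 to 2.03) and of -0.28 in HSC-like cells (-0.72 to 0.17).

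**Figure D4:**
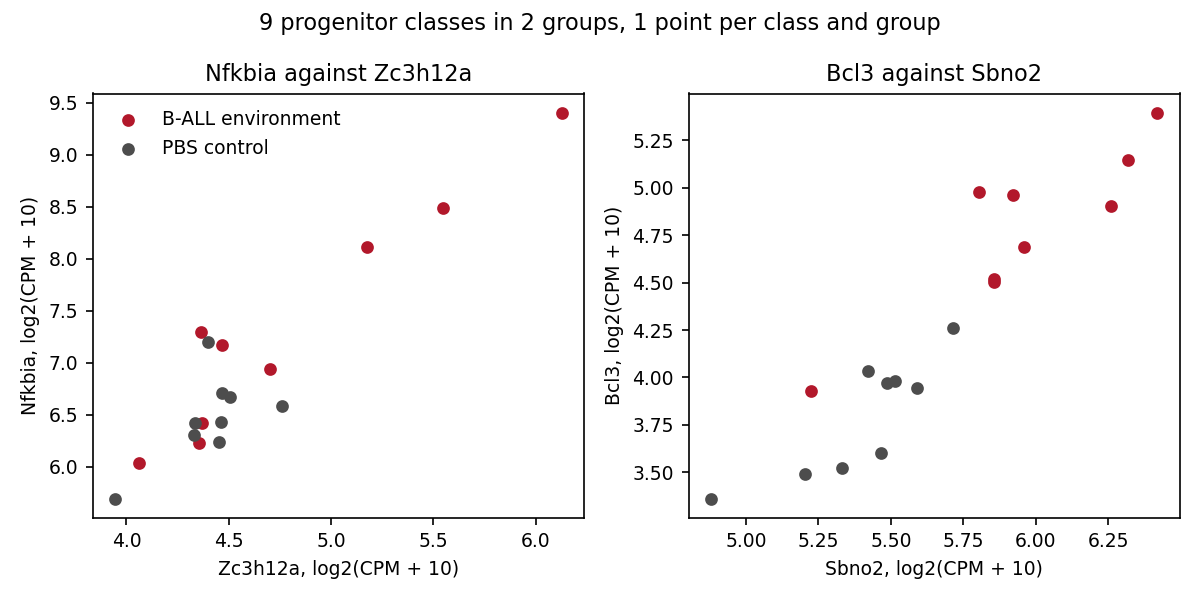
Level of Nfkbia against Zc3h12a (left) and of Bcl3 against Sbno2 (right), in log2(CPM + 10), with 1 point per class and group. Pearson r is 0.93 in both, and the 3 classes of the B-ALL environment with the highest Nfkbia are also those with the highest Zc3h12a.

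The rest of the pathway was described by lists of named genes, over all cells, where 12.6% of all genes were over 1.5-fold higher and 8.08% lower. These lists too were chosen with earlier results of these data known. Among ligands 4 of the 7 genes tested were over 1.5-fold higher, with a median log2 fold of 0.73. Ltb, the lymphotoxin subunit that signals to the non-canonical branch as part of a complex with lymphotoxin alpha, stood at 90.4 CPM in the B-ALL environment and 14.3 CPM in the PBS control (log2 fold 2.66, 2.56 to 2.76). Lta, which encodes lymphotoxin alpha, was not in the matrix. In erythroid-like cells Ltb stood at 50.1 CPM in the B-ALL environment and 1.32 CPM in the PBS control, and in HSC-like cells at 299.8 and 97.4 CPM. Tnfsf14 (LIGHT), a ligand of the lymphotoxin beta receptor, had a log2 fold of 0.73 (0.58 to 0.89). The other ligands past the limit, at lower levels, were Il1b (1.83, 1.36 to 2.32) and Il18 (1.72, 1.51 to 1.93). Tnfsf10 (TRAIL), a death receptor ligand, was below the limit, at 0.55 (0.45 to 0.65). Tnf was scarce and near equal, at 2.10 CPM in both groups (log2 fold 0.0014, -0.33 to 0.34).

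Among receptors 6 of 16 were over 1.5-fold higher and 1 lower (12.6% and 8.08% of all genes), with a median log2 fold of 0.27. Il1r1, the signalling receptor of interleukin-1, stood at 18.6 CPM in the B-ALL environment and 9.90 CPM in the PBS control (log2 fold 0.91, 0.78 to 1.05), while Tnfrsf1a, the main TNF receptor, was at 0.22 (0.15 to 0.28). Among kinases and adaptors, the proteins that carry the signal inward, 3 of 29 were over 1.5-fold higher and 1 lower, with a median of 0.06, so that this list stood near the background of all genes. Myd88, the adaptor of interleukin-1 and Toll-like receptors, was the highest of those averaging 10 CPM or more, at 34.0 CPM in the B-ALL environment and 18.8 CPM in the PBS control (log2 fold 0.85, 0.76 to 0.95). Among 16 other inhibitors 2 were over 1.5-fold higher and none lower, with a median of 0.20. Rnf11, a partner of A20, had a log2 fold of 0.62 (0.55 to 0.70), and Tnfaip8l2 was lower, at -0.41 (-0.48 to -0.34).

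Among target genes 10 of 24 were over 1.5-fold higher and 2 lower (12.6% and 8.08% of all genes), with a median log2 fold of 0.38. Ier3, an early response gene that protects from cell death, stood at 67.5 CPM in the B-ALL environment and 31.5 CPM in the PBS control (log2 fold 1.10, 1.03 to 1.17). Bcl2l1, which encodes the survival protein Bcl-xL, had a log2 fold of 1.00 (0.86 to 1.14). The 2 lower genes were Ccnd1, which encodes cyclin D1, at 12.9 CPM in the B-ALL environment and 39.7 CPM in the PBS control (log2 fold -1.62, -1.73 to -1.52), and Tnfaip2, at 61.7 and 151 CPM (log2 fold -1.29, -1.34 to -1.24). Within classes the list's median was 0.81 in erythroid-like, 0.77 in early erythroid-megakaryocyte-like, 0.37 in basophil and mast cell-like and 0.03 in HSC-like cells.

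Genes of immediate early response, several of which are known to respond to cell dissociation, were followed beside these. Over all cells 7 of 16 were over 1.5-fold higher and none lower, with a median log2 fold of 0.46. They included Zfp36 at 0.76, Jund at 0.69 and Klf6 at 0.62. The others past the limit, at lower levels, were Hspa1a (1.78), Hspa1b (1.73), Klf2 (1.13) and Klf4 (0.65). The list's median was 0.03 in early erythroid-megakaryocyte-like and 0.02 in basophil and mast cell-like cells, where NF-kB genes had medians of 1.79 and 1.55. It was 0.77 in erythroid-like cells and 0.43 in HSC-like cells, where the NF-kB genes had medians of 2.16 and 0.55. The part of this response in the NF-kB values was not tested.

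**Figure D5:**
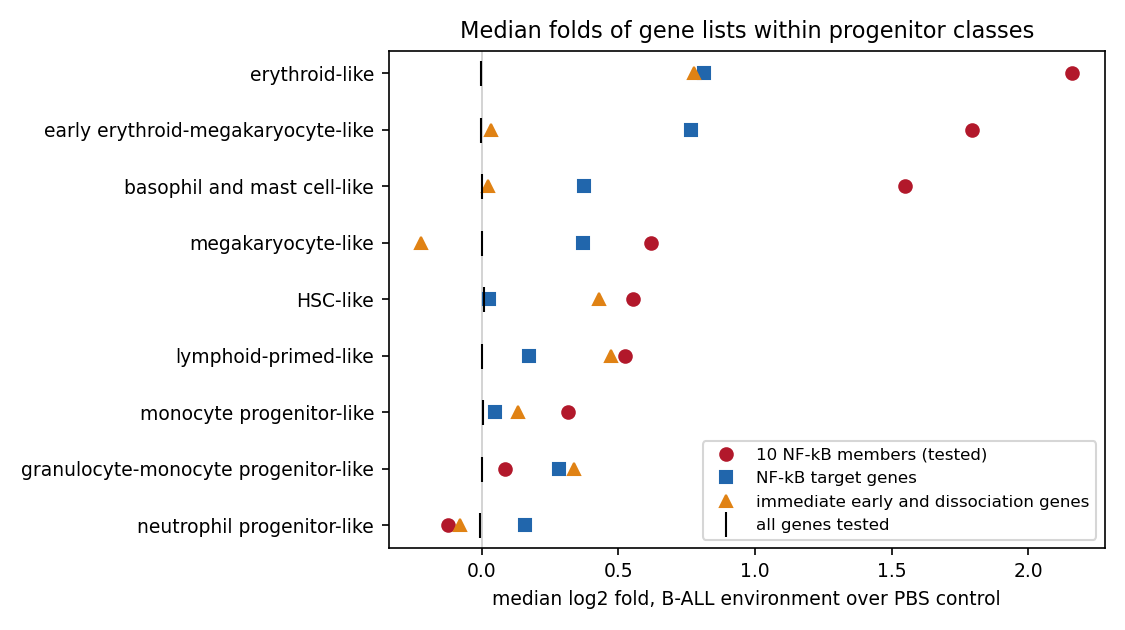
Median log2 fold (B-ALL environment over PBS control) of the NF-kB genes that passed the low-count filter, of the target and immediate early gene lists and of all genes tested (black ticks) in each of 9 progenitor classes. The NF-kB medians run between 2.16 in erythroid-like and -0.12 in neutrophil progenitor-like cells, and the immediate early medians are near 0 in early erythroid-megakaryocyte-like and basophil and mast cell-like cells.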

How the data were processed

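Host bone marrow cells of 4 mouse samples, 2 per group, were measured with the 10x Chromium 3′ kit, per the labels' protocols. The submitters' processing notes name the mm10 build, Seurat 4.0.1 and Cell Ranger 4. The deposited matrix holds raw UMI counts, and the other values, the group prefix, totals and map coordinates of each cell, were used as the authors deposited them. The prefix tm was read as the tumor environment. How genes and cells were filtered is not given in the sources used here. The members and gene lists were chosen with earlier results of these data known.

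Leiden clusters were made from the authors' map coordinates (scanpy 1.11.5, igraph 0.11.9, 30 neighbours, resolution 0.3). A cluster was named for its best enriched marker list where the mean log2 enrichment reached 0.5 (10 CPM added), at least 3 markers were detected in 10% of its cells, and its 10 leading genes held no more markers of another list. A doublet caller called 3 cells in the B-ALL environment and 6 in the PBS control, so it had not worked, and no cell was removed. Counts were summed per class and group, filtered as in edgeR 4.0.16 (10 UMIs in a sample of median size, 15 in all) and scaled by TMM, with factors of 1.01 in the B-ALL environment and 0.988 in the PBS control over all cells. The edgeR test could not be run with 1 sample per group. Folds have exact conditional intervals, levels exact Poisson intervals and shares exact Clopper-Pearson intervals. The calculation was tested on simulated data. Genes of other lists were named by size of log2 fold, up to 4 per list, with a mean of at least 10 CPM. Immediate early genes and ligands below that level are also given where they were over 1.5-fold higher over all cells, and Tnf is given beside them. All 10 members are named.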

Additional observations from a re-analysis of the deposited data

Results flagged for a closer look

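The 3 values below lay on the other side of 0 from those of other classes, with intervals on both sides that did not hold 0. None of these differences between classes was tested, and 1 sample per group gives no spread between mice.

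Rel had a log2 fold of -0.23 in monocyte progenitor-like cells and of -0.42 in neutrophil progenitor-like cells, while it was 0.96 (0.58 to 1.34) in early erythroid-megakaryocyte-like and 1.68 (0.89 to 2.47) in erythroid-like cells. Nfkbia had a log2 fold of -0.45 in neutrophil progenitor-like cells and was above 0 in 6 classes, from 0.40 in lymphoid-primed-like to 2.70 in erythroid-like cells. With cells assigned to classes one by one by their markers, the Nfkbia value in neutrophil progenitor-like cells was 0.11 (-0.14 to 0.36), so its sign depended on how the class was drawn.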

How the results depend on the processing

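Each group is 1 sample, so every value rests on counting error alone. No paired analysis was possible because the cells carry no replicate number, and leaving out each replicate in turn was not run for the same reason. Of 670 alternative folds of the members, 622 stayed within the counting interval, 48 moved beyond it and no fold past 1.5 changed sign. DESeq2 size factors, plain CPM and leaving out cells shallower than any control cell gave 100 of these folds each and moved none. Leaving out the highest 5% of doublet scores also gave 100 and moved none. These scores came from the doublet caller that had not worked, so this setting cannot tell whether doublets matter. Among settings that changed which cells were compared, equal cells of every class moved 6 of 10 folds and cell-by-cell classes moved 16. Finer clusters moved 2. Chosen after seeing the data, all cells without the erythroid-like, early erythroid-megakaryocyte-like and basophil and mast cell-like classes gave 4 members over 1.5-fold higher (12.3% of all genes), against 7 (12.6%) with them, and Nfkbia was then at a log2 fold of 0.51, Nfkbie at 0.27 and Tnfaip3 at 0.27. Also chosen after, cluster 3 of HSC-like cells alone gave 3 members (14.8% of all genes), against 5. Of the 10 member folds, 9 moved without the erythroid-like, early erythroid-megakaryocyte-like and basophil and mast cell-like classes. In cluster 3 alone 6 moved, and in each other single cluster taken alone 2 or 3 did. With equal cells of every class 6 members were over 1.5-fold higher (8.46% of all genes), against 7 (12.6%). The log2 folds were then 0.95 for Nfkbia, 1.93 for Bcl3, 1.39 for Tnip3 and 1.73 for Relb. Without the highest 5% of doublet scores erythroid-like cells had 7 members over 1.5-fold higher (9.95% of all genes), against 9. Monocyte progenitor-like cells then had 2 (4.72%), against 4. With classes assigned cell by cell, neutrophil progenitor-like cells had 4 (6.19%), against 1. Early erythroid-megakaryocyte-like cells then had 7 (10.1%) and erythroid-like cells 8 (8.52%), each against 9, and basophil and mast cell-like cells kept 7 (7.66%). At a limit of 2-fold, 0 other inhibitors, 1 kinase or adaptor, 2 receptors, 5 targets and 3 immediate early genes were higher, and 0 kinases or adaptors and 0 receptors lower. The share of all genes past 2-fold is not given here, so these counts have no background. With equal cells of every class, 1 other inhibitor, 2 receptors and 4 immediate early genes were over 1.5-fold higher (8.46% of all genes). In that setting 0 kinases or adaptors, 0 receptors and 1 target gene were lower, and the share of all genes that were lower is not given here. The cause of these moves was not tested.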
